A study of Mus musculus with 6 samples.

Results

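The genes described here are 9 genes of mouse chromosome 1 that surround Tnfrsf11a, the gene that encodes RANK: Gin1, Pam, Pign, Zcchc2, Phlpp1, Kdsr, Vps4b, Serpinb5 and Tfcp2l1. They were found through the accession that the array gives each gene probe, which matched 13 probes of the 9 genes, and all 13 probes passed the filter on dim signals among the 22503 genes or transcripts tested. The members were chosen by their place on the chromosome and from earlier results of the same contrast, so their ratios are given as a description with no test. In the RNA labelled RANK-/-, the brighter of the 2 Gin1 probes was lower by 1.87 ± 0.36 on the log2 scale (SD, n = 3 pairs), both probes of Tfcp2l1 were lower, and Pam, the neighbor of Gin1, was higher. The 6 members nearest to Tnfrsf11a had mean log2 ratios between -0.06 and 0.34.

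All RNA came from MMTV-PyMT late carcinoma cells of the C57BL/6 strain, either RANK+/+ or RANK-/-, that had grown as orthotopic transplants in young syngeneic C57BL/6 females and were sorted as live CD45- cells, a gate that removes leukocytes but leaves stromal cells of the host. MMTV-PyMT is a transgene in which a mammary tumor virus promoter drives the polyoma middle T antigen, and both genotypes carry it. The RANK-/- line lacks RANK in every cell of the tumor donor, and was made by backcrossing an FVB/N transgenic line and a RANK mutant line into C57BL/6. Each of 3 pairs put 1 RANK-/- RNA against 1 RANK+/+ RNA on a two-color array, with arrays A and B as technical replicates, and the number of tumors behind each RNA is not given in the sources used here, so the spread between pairs may be partly technical.

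Tnfrsf11a itself went against the labels, and every direction below rests on those labels, so that RANK-/- and RANK+/+ name the RNA as labelled. Its log2 ratio of RANK-/- over RANK+/+ was 2.03, 1.15 and 1.76 in pairs 1, 2 and 3, so that its probe was 3.13-fold brighter on average in the channel labelled RANK-/-. The log2 intensity was 13.55, 13.36 and 13.07 in the RNAs labelled RANK-/- and 11.52, 12.21 and 11.32 in those labelled RANK+/+, and the groups did not overlap. Whether the probe lies in the part of the gene that was disrupted is not given in the sources used here, and a probe outside that part would not check the labels. RANK-/- was in Cy5 on both arrays of pair 1 and in Cy3 on all arrays of pairs 2 and 3, so the dye was not balanced within a pair.

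Markers of both mammary epithelial lineages were present in the sorted cells. Probes for 21 of 22 luminal and all 19 basal markers were well above background in all 12 array channels, and so were all 15 fibroblast markers and 13 of 14 endothelial ones. Among 22 leukocyte markers 12 were above background in every channel and 4 in none, and Ptprc, which encodes CD45, was above it in 5 of 6 RANK-/- and 4 of 6 RANK+/+ channels. Per array and genotype, 51.9% to 58.8% of gene probes were well above background, and no gene spot was saturated. In such bulk RNA, fewer cells of a type and less RNA per cell cannot be told apart.

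RANK is a receptor of the tumor necrosis factor receptor superfamily that binds RANKL and signals through TRAF adaptors and NF-kB. In the mammary gland it is known for relaying the progesterone signal to epithelial cells. The genes beside it on the chromosome are not known as one pathway: they encode a domesticated retroelement protein, a transcription factor of the CP2 family, enzymes of peptide, lipid anchor and sphingolipid synthesis, a phosphatase of Akt, an ATPase of membrane remodeling and a serpin.

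The stretches before the start of the 3 members with the largest ratios are shown as a description. Whether they bear on the ratios was not tested. Each runs 5′ to 3′ on the strand of its gene over the 250 bases before the most upstream start in the RefSeq table of build GRCm38.p6, and lies at chr1:97769922-97770171 on the + strand for Gin1, chr1:98095647-98095896 on the - strand for Pam and chr1:118627695-118627944 on the + strand for Tfcp2l1. Capitals mark matches to a TATA box (TATAAA) or a GC box (GGGCGG) on either strand.
Gin1: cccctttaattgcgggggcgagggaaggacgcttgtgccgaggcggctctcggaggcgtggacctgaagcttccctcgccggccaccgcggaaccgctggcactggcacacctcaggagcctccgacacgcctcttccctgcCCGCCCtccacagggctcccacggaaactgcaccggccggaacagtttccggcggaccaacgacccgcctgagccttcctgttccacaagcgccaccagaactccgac
Pam: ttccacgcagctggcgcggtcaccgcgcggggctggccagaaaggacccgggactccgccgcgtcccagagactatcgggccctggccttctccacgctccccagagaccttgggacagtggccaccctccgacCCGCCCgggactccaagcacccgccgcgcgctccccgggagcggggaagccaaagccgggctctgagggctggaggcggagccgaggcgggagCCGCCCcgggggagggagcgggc
Tfcp2l1: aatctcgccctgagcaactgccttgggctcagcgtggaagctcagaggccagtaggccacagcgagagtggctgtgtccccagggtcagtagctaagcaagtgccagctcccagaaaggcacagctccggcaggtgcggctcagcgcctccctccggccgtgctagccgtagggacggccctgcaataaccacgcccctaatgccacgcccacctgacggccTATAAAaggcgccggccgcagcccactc

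These windows differed in their elements. Tfcp2l1 had a TATA box that began 28 bases before its start, and no other member had one; 12.4% of the 32851 windows of all genes held one. A GC box was found in 7 of the 9 members, once for Gin1 and at 2 places for Pam but not for Tfcp2l1 or Vps4b, against 32.7% of all windows. CCAAT was present in 3 members, Pign, Zcchc2 and Serpinb5, against 33.8% of all windows. GC content was 68.0% for Gin1, 75.6% for Pam and 65.2% for Tfcp2l1, with a median of 52.4% over all windows. The matches are letters in a window and not evidence of a binding site.

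Gin1 encodes gypsy retrotransposon integrase 1, a cellular protein derived from a retroelement integrase. For its brighter probe, annotated to XM_006529614, the log2 ratio was -1.49 and -1.42 on the arrays of pair 1, -1.96 and -1.99 on those of pair 2, and -2.13 and -2.20 on those of pair 3. The log2 intensity was 7.06, 7.32 and 6.98 in the RNAs labelled RANK-/- and 8.52, 9.29 and 9.14 in those labelled RANK+/+. The groups did not overlap, the ratio was below 0 in pair 1, with RANK-/- in Cy5, and in pairs 2 and 3, with RANK-/- in Cy3, and the mean ratio was 3.65-fold lower in the RNA labelled RANK-/-. A lower mean ratio was found for 0.0267% of tested genes, and nothing is read from this rank of a gene chosen on the same contrast. The second Gin1 probe, annotated to NM_026250, gave log2 ratios of -0.23, 0.00 and -0.05 in pairs 1, 2 and 3, with a mean of -0.09 ± 0.12 (SD, n = 3). Its log2 intensity was 6.81, 7.13 and 7.10 in the RNAs labelled RANK-/- and 7.04, 7.13 and 7.15 in the RNAs labelled RANK+/+, which overlapped. Both probes were well above background in all 12 channels, so the low ratio was seen by 1 of the 2 Gin1 probes. The files do not give where on the transcripts the probes lie.

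**Figure D1:**
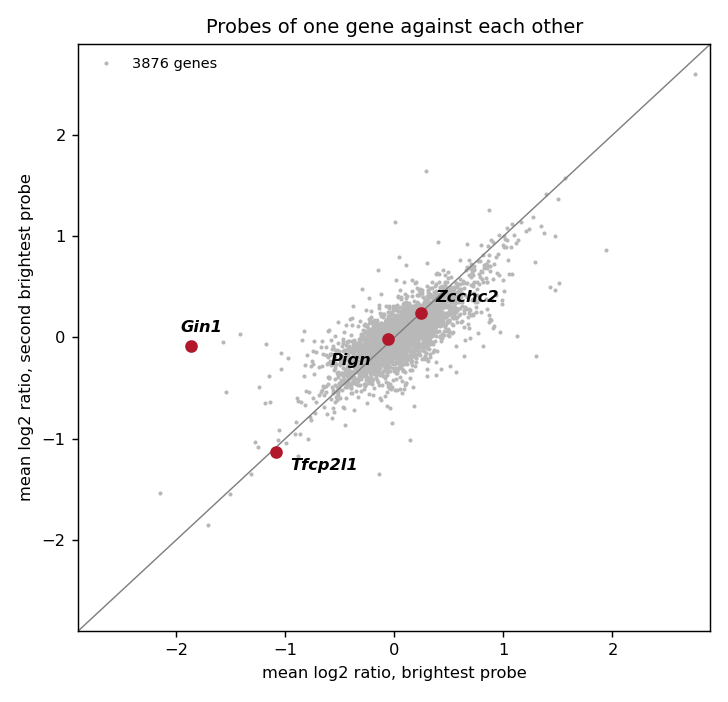
Mean log2 ratio of RANK-/- over RANK+/+ over 3 pairs for the brightest (x axis) and the second brightest (y axis) tested probe of each of 3876 genes with several probes (gray points), with the 4 such members in red and the line of equal ratios in gray. Tfcp2l1, Pign and Zcchc2 lie near the line, and Gin1 lies away from it at -1.87 against -0.09.

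The gap between the Gin1 probes was larger than that of most genes with several tested probes. Over 3876 such genes, the median gap between a gene's highest and lowest probe was 0.11 on the log2 scale. The gap of Gin1 was 1.78, and 99.97% of these genes had a smaller one. Gin1 was chosen on this contrast, and genes with small ratios by all probes cannot have a large gap, so nothing is read from this rank. Some other genes with a large ratio by the brightest probe had a second probe near 0, such as Galnt14 (-1.58 and -0.05) and Heph (-1.41 and 0.04). Others had 2 like probes, such as Bex1 (-2.15 and -1.54) and Kcne3 (-1.32 and -1.35). The other members with 2 probes had gaps of 0.04 for Pign, 0.0018 for Zcchc2 and 0.04 for Tfcp2l1.

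Tfcp2l1 encodes a transcription factor of the CP2 family that is expressed in ductal epithelia and in pluripotent stem cells. Its brighter probe had log2 ratios of -0.95, -1.60 and -0.72 in pairs 1, 2 and 3, a mean of -1.09 ± 0.46 (SD, n = 3) or a 2.13-fold lower signal. The log2 intensity was 8.70, 7.27 and 8.16 in the RNAs labelled RANK-/- and 9.65, 8.87 and 8.88 in the RNAs labelled RANK+/+. The second probe gave -1.32, -1.29 and -0.77, a mean of -1.13 ± 0.31. The RNAs labelled RANK-/- were all below the RNAs labelled RANK+/+ by either probe, and the margin was small for both: the highest value labelled RANK-/- and the lowest labelled RANK+/+ were 8.70 and 8.87 for the brighter probe and 7.83 and 7.95 for the second.

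Zcchc2 encodes a protein with a CCHC zinc finger, a fold found in nucleic acid binding proteins, and is the nearest tested gene on the far side of Tnfrsf11a from Gin1. Its brighter probe had log2 ratios of -0.12, 0.65 and 0.19, a mean of 0.24 ± 0.39 (SD, n = 3), and pair 1 ran against the others. The second probe gave 0.09, 0.33 and 0.31, with the same mean of 0.24 and a smaller spread of 0.13. The intensities of the genotypes overlapped for both probes.

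Pam encodes peptidylglycine alpha-amidating monooxygenase, the enzyme that amidates the C terminus of peptide hormones. Its log2 ratio was 1.44 and 1.22 on the arrays of pair 1, 0.63 and 0.48 on those of pair 2, and 1.79 and 1.76 on those of pair 3. The log2 intensity was 9.21, 8.63 and 9.91 in the RNAs labelled RANK-/- and 7.88, 8.07 and 8.13 in the RNAs labelled RANK+/+. All RANK-/- values were above all RANK+/+ values, and the mean log2 ratio was 1.22 ± 0.62 (SD, n = 3), a 2.33-fold higher signal. The RNAs labelled RANK+/+ lay close together while the RNAs labelled RANK-/- spread over more than a log2 unit. Pam is represented by 1 probe, so no second probe bears on it.

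**Figure D2:**
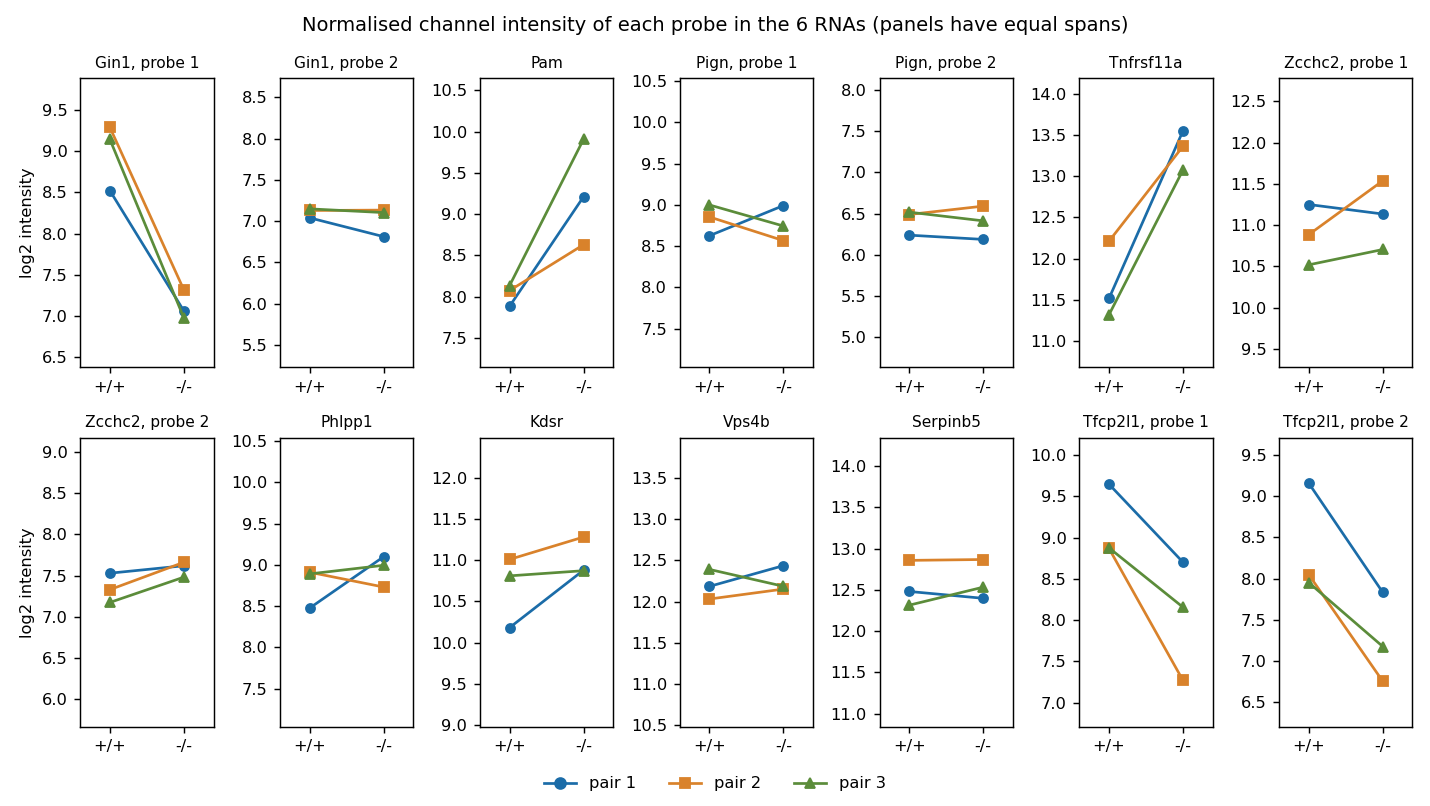
Normalized log2 intensity of each member probe and of the Tnfrsf11a probe in the RNA labelled RANK+/+ (left of each panel) and RANK-/- (right), with lines joining the RNAs of a pair; every panel spans the same number of log2 units, and levels are not comparable between probes. All 3 lines fall for Gin1 probe 1 and both Tfcp2l1 probes and rise for Pam and Tnfrsf11a, whereas Gin1 probe 2, Pign, Vps4b and Serpinb5 are nearly flat or cross.

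Pign and Kdsr encode enzymes of lipid synthesis. Pign adds ethanolamine phosphate to the growing glycosylphosphatidylinositol (GPI) anchor, and its brighter probe had log2 ratios of 0.37, -0.29 and -0.26, a mean of -0.06 ± 0.37 (SD, n = 3). Its second probe, which was near background, had a mean of -0.02 ± 0.11 and was above background in 4 RANK-/- and 5 RANK+/+ channels. Neither probe separated the genotypes. Kdsr, the reductase of the second step of sphingolipid synthesis, had log2 ratios of 0.70, 0.27 and 0.06 and a mean of 0.34 ± 0.32. The Kdsr probe was printed as 10 spots on every array, and the SD between spots of an array was 0.05 to 0.11 on the log2 scale. In pairs 1 and 2 every Kdsr spot was above 0, from 0.14 to 0.81, and in pair 3 the spots ran from -0.11 to 0.23, so the pairs differed by more than the spots did. The genotypes overlapped in intensity: the RNAs labelled RANK-/- had 10.88, 11.28 and 10.87 and the RNAs labelled RANK+/+ 10.18, 11.01 and 10.81.

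The members of signaling and trafficking had small ratios of mixed sign. Phlpp1 encodes a phosphatase that removes an activating phosphate from Akt, and its log2 ratios were 0.62, -0.18 and 0.10, a mean of 0.18 ± 0.41 (SD, n = 3). Vps4b encodes an ATPase that takes apart the ESCRT-III filaments of endosomes and the dividing cell, and had 0.25, 0.12 and -0.20, a mean of 0.06 ± 0.23. Serpinb5 encodes maspin, a clade B serpin of mammary myoepithelium, and had -0.08, 0.01 and 0.22, a mean of 0.05 ± 0.15. By the probe that stood for each gene, Serpinb5 had the smallest SD over pairs of the 9 members. None of these separated the genotypes.

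Across the members, 2 of 9 (Pam and Kdsr) were above 0 in all 3 pairs, where 9.95% of all tested genes were, and 2 of 9 (Gin1 and Tfcp2l1) were below 0 in all pairs, where 9.65% were. Pam alone was above 0 in all pairs with a mean of at least 2-fold (0.449% of tested genes), and Gin1 and Tfcp2l1 were below 0 in all pairs by at least 2-fold (0.338%). The 3 RANK-/- intensities were all above the RANK+/+ ones for 1 member, Pam (3.66% of tested genes), and all below for 2, Gin1 and Tfcp2l1 (3.78%). Because the members were selected on this contrast, nothing is read from these counts. The other 6 members had absolute means under 0.5, as did 92.1% of tested genes, and the median over the 9 member means was 0.06 against 0.0045 for all tested genes. With limma and Benjamini-Hochberg adjustment over all tested genes, 0% were called, 0 of 22503, the smallest adjusted p being 0.9995, while 647 had an unadjusted p under 0.05. Rank product called 17 genes (0.0756%) and limma with the pair as a random block over 6 arrays called 13 (0.0578%). Gin1 was the 1 member among the genes called by each, which is no independent support for a gene chosen on this contrast. Tnfrsf11a, which is not a member, was called by limma with the random block (adjusted p 0.0196) and not by rank product. With pair 1 left out, 7 members had one sign in the remaining 2 pairs, and with pair 2 or pair 3 left out 5 had. One sign over 2 pairs is a looser demand than over 3, so these counts could not fall below the 4 seen over all pairs. The share of all tested genes is not given for 2 pairs, and nothing is read from these counts. Under median centring the number with one sign in all 3 pairs was 3, since Kdsr was then above 0 in 1 pair, with a mean of 0.13 where the median over all tested genes was -0.14.

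The ratios did not form a block around Tnfrsf11a. The nearest tested genes were Relch and Pign on the Gin1 side and Zcchc2 and Phlpp1 on the other, and Relch, which encodes a protein of endosomal cholesterol transport, had log2 ratios of -0.06, 0.32 and -0.26. From Gin1 to Tfcp2l1 there are 36 protein-coding genes in the RefSeq table, 33 of which had a probe, and 19 genes of the run were tested. The median of their mean log2 ratios was 0.00029, and without the members and Tnfrsf11a it was -0.03 over 9 genes. By pair, the medians of these 9 genes were 0.23, 0.32 and -0.44 in pairs 1, 2 and 3. Over all tested genes the medians were 0.015, -0.012 and 0.0011. The mean over pairs hides such shifts of opposite sign, whose cause was not tested. None of those 9 had one sign in all pairs, and their spread was wide: Serpinb11, a clade B serpin of the cluster, had 1.70, 0.74 and -1.61, and Bcl2, an inhibitor of apoptosis, had 0.37, 0.35 and -1.10. Gin1 and Pam lay at the ninth and the eighth coding gene before Tnfrsf11a, and Tfcp2l1 lay 26 coding genes after it.

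**Figure D3:**
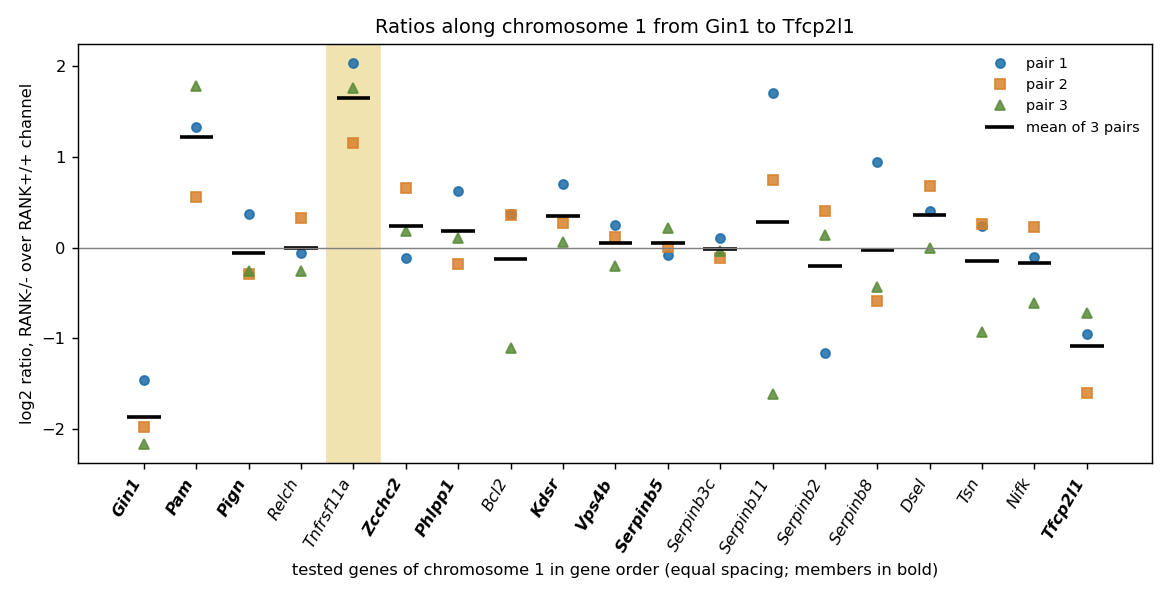
Log2 ratio of RANK-/- over RANK+/+ in pair 1 (circles), pair 2 (squares) and pair 3 (triangles) and their mean (bars) for the 19 tested genes from Gin1 to Tfcp2l1 in gene order, with equal spacing and not to distance; members are in bold and Tnfrsf11a is shaded. Gin1, Pam, Tnfrsf11a and Tfcp2l1 have all 3 pairs well to one side of 0, the nearest being 0.56 for Pam in pair 2, and the genes between them scatter around 0.

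Chromosome 1 as a whole had a raised median in 1 pair. Over its 827 tested genes the median log2 ratio was 0.02 in pair 1, 0.20 in pair 2 and -0.03 in pair 3, and the value of pair 2 was the highest of 20 chromosomes in that pair. In that pair the medians were 0.01 over the members and 0.26 over the run. Genes above 0 in all pairs made up 14.8% of chromosome 1 and genes below 0 made up 4.11%, against 9.95% and 9.65% of all tested genes. In pair 2, the ratios of Pam (0.56) and Zcchc2 (0.65) were above the chromosome's median and those of Gin1 (-1.97) and Tfcp2l1 (-1.60) far below it. The part of this shift in the members' values was not tested.

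Markers of other cells differed alongside the members with the largest ratios. Of the 12 tested keratinocyte and squamous markers, 5 were below 0 in all pairs and none above, where 9.65% and 9.95% of all tested genes were. Among the 5 were Dsp at -1.54 ± 0.29 by its brightest probe and Ly6d at -1.45 ± 0.24 (SD, n = 3). The second brightest Dsp probe had a smaller mean of -0.54. The summed level of the list ran from 13.88 to 14.52 on the log2 scale in the RNAs labelled RANK-/- and from 14.70 to 15.24 in the RNAs labelled RANK+/+. Of the 15 fibroblast markers, 6 were above 0 in all pairs and none below, among them Col1a2 at 1.28 ± 0.96. Their summed levels were 17.37 to 18.03 in the RNAs labelled RANK-/- and 16.10 to 17.36 in the RNAs labelled RANK+/+, so the ranges nearly touched. The log2 ratio of the summed levels was 0.23, 0.68 and 1.92 in pairs 1, 2 and 3, and thus far larger in pair 3. Of the 22 luminal markers 2 were above 0 in all pairs, Ly6a at 0.74 ± 1.15 and Esr1 at 0.34 ± 0.33. The second brightest Esr1 probe had a mean of 0.05. Only 1 was below in all pairs, Foxa1, a luminal transcription factor, at -0.97, -2.10 and -0.66. The median of the mean ratios over the luminal list was 0.29, but by pair the medians were 0.16, -0.61 and 0.73, so pair 2 ran against the others. Of the 19 basal markers 1 was above and 4 below, and the median of the mean ratios was -0.32. The summed levels of the luminal, basal, endothelial and leukocyte lists overlapped between genotypes. In pairs 1, 2 and 3 the log2 ratio of the summed luminal levels was 0.27, -0.73 and 1.25, and that of the leukocyte levels was -1.32, -0.07 and 0.13. The part of these shifts in the lower Gin1 and Tfcp2l1 and the higher Pam signals was not tested.

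The genes whose 6 array ratios lay nearest to those of each of the 3 members with the largest ratios were found by root mean square difference on the log2 scale. For the brighter Gin1 probe they were Gjb6, a gap junction connexin (0.41), Wif1, a secreted Wnt antagonist (0.45), Ly6d, a surface protein of keratinocytes (0.46), Armcx2 (0.49) and Alox5ap, a protein of leukotriene synthesis (0.57). For Pam they were C1qtnf3 (0.18), Tgfbr3, a co-receptor for TGF-beta (0.20), a transcript listed only by its accession (0.20), 9230102O04Rik (0.24) and H2-K1, a class I major histocompatibility gene (0.24). For Tfcp2l1 they were Slc26a9, an anion transporter (0.11), Zfp711 (0.14), Fabp3, a fatty acid binding protein (0.22), Arpin, an inhibitor of Arp2/3 (0.24), and Npw, a neuropeptide (0.25). Of those with a symbol, Slc26a9 alone is on chromosome 1, which holds 827 of the 14673 tested genes with a symbol, so nothing is read from their chromosomes. With 6 arrays of 3 pairs, these likenesses are a description over few points.

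The genes that work with the members, or are related to them, were read from lists chosen by function. Beside the counts below, 9.95% of all tested genes were above 0 in all pairs and 9.65% were below. The list drawn up for Gin1 is not limited to genes derived from retroelements. Of its 11 other tested genes, 1 was above 0 in all pairs, Rtl5 (0.69 ± 0.52, SD, n = 3), and 2 were below, Arc (-0.81 ± 0.51) and Zcchc3 (-0.42 ± 0.17), with a median of -0.08. None was as low as Gin1. Of the 16 other tested genes of prohormone processing and amidation, Cpd, a carboxypeptidase that trims peptides in the secretory pathway, was above 0 in all pairs at 1.60, 0.81 and 2.01, with a mean of 1.47 ± 0.61. Cpd ranked its pairs as Pam did, with pair 2 lowest and pair 3 highest. In the same list Rassf9, a protein that binds Pam in endosomes, was lower at -0.94 ± 0.26, as were the convertase Pcsk6 (-0.77 ± 0.77) and the granin-like Vgf (-0.30 ± 0.18), and the list's median was -0.02.

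**Figure D4:**
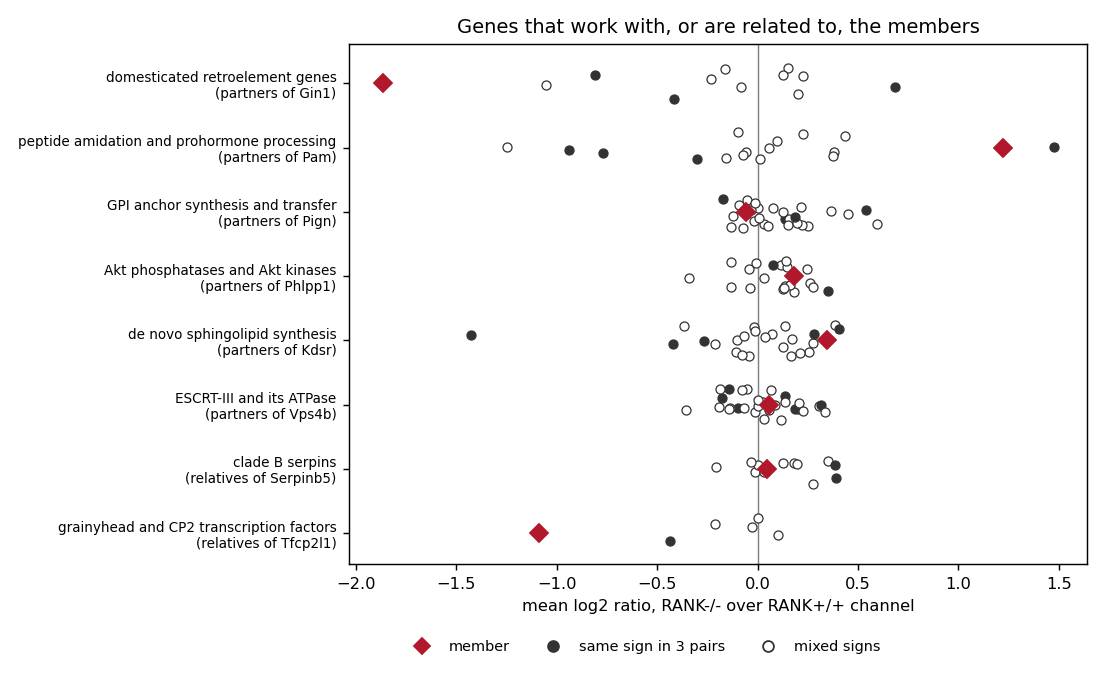
Mean log2 ratio of RANK-/- over RANK+/+ over 3 pairs for the tested genes of 8 functional lists, with the member in red, filled circles for genes with one sign in all pairs and open circles for mixed signs; vertical scatter within a list has no meaning. Gin1 and Tfcp2l1 lie to the left of every other tested gene of their lists, Pam lies beside Cpd on the right, and the other members lie among their lists. Not all genes of the Gin1 list derive from retroelements.

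Partners of the members with small ratios were mostly mixed in sign, as tested genes were in general. Of all tested genes 9.95% were above 0 in all pairs and 9.65% below, and nothing is read from the counts per list. In the GPI anchor list 3 of 28 genes were above 0 in all pairs and 1 below, the largest being Pigk, the protease of the GPI transamidase, at 0.54 ± 0.18 (SD, n = 3). In the Akt list 3 of 21 were above and none below, among them Ppp2r1a, the scaffold subunit of protein phosphatase 2A, at 0.18 ± 0.08. In the sphingolipid list 2 of 24 were above, Smpd1, a sphingomyelinase (0.40 ± 0.34), and Sptlc1, a subunit of the enzyme of the first step (0.28 ± 0.12), and 3 were below. The lowest was Cers3, the ceramide synthase of very long chains in skin, at -2.46, -0.96 and -0.86. In the ESCRT list 3 of 29 were above and 3 below, the largest being Chmp4b, a subunit of the filament, at 0.32 ± 0.23. Of 12 other tested clade B serpins 2 were above, Serpinb9c (0.39 ± 0.11) and Serpinb9, an inhibitor of granzyme B (0.39 ± 0.29). Of the 5 relatives of Tfcp2l1, Grhl3, a factor of epidermal barrier formation, was below 0 in all pairs at -0.44 ± 0.49, and Tfcp2, its closest relative, had 0.47, -0.44 and -0.12. The medians of these 6 lists were between -0.03 and 0.15.

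The 3 largest ratios kept their sign under every setting run, and the size of the Gin1 ratio turned on the choice of probe. Over the settings that kept the brighter probe and all 3 pairs, the mean of Gin1 was between -2.55 and -1.76, that of Pam between 1.04 and 1.44 and that of Tfcp2l1 between -1.36 and -1.05. Averaged over both probes, Gin1 was -0.98. Under median centring in place of loess the median over all tested genes moved to -0.14, and Vps4b (-0.19), Serpinb5 (-0.22) and Pign (-0.23) lay near that value.

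**Figure D5:**
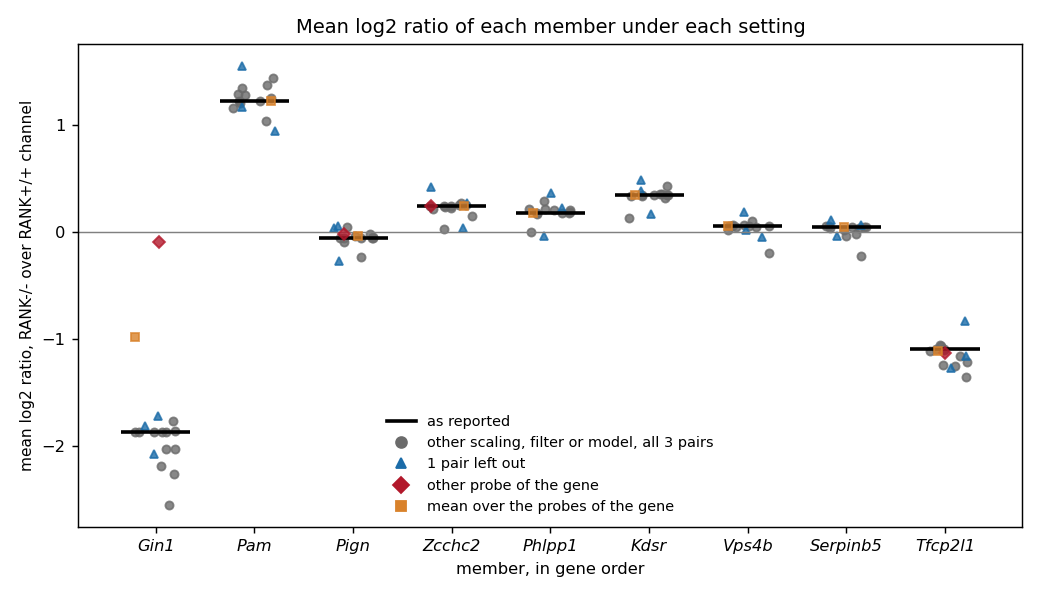
Mean log2 ratio of each member as reported (bars), under other scalings, filters and models (gray circles), with 1 pair left out (blue triangles), with the other probe of the gene (red diamonds) and averaged over probes (orange squares). Gin1 ranges from -2.55 to -0.09, the latter with its other probe, while Pam and Tfcp2l1 keep their signs and the other members lie within 0.5 of 0.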

How the data were processed

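RNA of 6 samples was hybridized to 6 two-color Agilent arrays in 3 pairs with 2 technical arrays each. Per the labels the spots were quantified by Agilent Feature Extraction 10.7.3.1, and the array design refers to build mm9. The authors deposited median spot and background intensity values, their processed intensity values and a table of log2 ratios made, by the study's methods, with normexp, spatial and intensity loess and Aquantile. That table correlated at 0.948 to 0.961 with the RANK-/- over RANK+/+ ratio of each array, so its direction is the one used here. Its scale as log2 was taken from this comparison, and its array medians were between -0.00965 and 0.00531.

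Median signals were corrected by normexp (offset 50) on all spots, and control spots (3671 of 62976) and outlier spots (212 to 260 per array) were left out. Loess within and Aquantile between arrays followed in limma 3.58.1 (R 4.3.3). Spots of a probe were averaged, ratios were turned to RANK-/- over RANK+/+, and the technical arrays were averaged within each pair, leaving 3 values. The filter asked that the technical arrays of 2 or more pairs both show a probe well above background in the same genotype, which kept 30230 of 55681. The brightest probe stood for a gene, and 28026 probes were named through the unversioned accession in the RefSeq table of GRCm38.p6, which was used for names and gene order. The limma fit had an intercept only, so the pair is a block by construction, and was tested on simulated data. The number of arrays limits the precision.

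The members and lists were chosen with earlier results of these data known. Genes were named by rule: all members and Tnfrsf11a; the 2 nearest tested genes on each side; other genes of the run with one sign in all pairs and a 2-fold mean (none met it; Serpinb11 and Bcl2 were named after their values were seen); up to 3 genes each way per list (Tfcp2 was added likewise); and the 5 nearest in ratio. Labels show the same dye orientation for arrays A and B of a pair, although the methods describe dye swaps. Sequences are from RefSeq. All samples were on 1 slide. Alternatives covered background, signal, normalization, filter, probe, technical array, dye, block and replicates.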

Additional observations from a re-analysis of the deposited data

How the results depend on the processing

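Arrays could not be scaled by mean spot signals, which the files used here do not hold. The mean log2 ratio of Gin1 was -2.55 with the processed signals, -2.26 in the table of the authors and -0.98 over both probes, and -0.0895 with the other probe, an alternative chosen after seeing the data. The number of genes called was 13 with the pair as a random block over 6 arrays and 17 by rank product, against 0 by limma. With no replicate block, that is with channels as separate samples, 0 genes were called (828 with an unadjusted p under 0.05) and the Gin1 mean was -1.87, since unpairing leaves a mean difference as it is; for the same reason the other results were not rerun without the block. Leaving out 1 pair gave 0 genes called each time, 5 to 7 members with one sign in the 2 remaining pairs, a looser demand than over 3, Gin1 means of -2.07 to -1.72 and medians over the chromosome 1 run of -0.04 to 0.19. Pign, Phlpp1, Vps4b and Serpinb5, whose means were near 0, changed sign under some alternatives, among them median centring, which gave Vps4b -0.19 and Serpinb5 -0.22. Pam, Zcchc2, Kdsr and Tfcp2l1 kept their sign under every alternative run. Over all 15 alternatives the run's median lay between -0.17 and 0.19, and its sign, near 0, was kept in 9. The cause of these changes was not tested. Probe signal over background limits most the second Pign probe.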

Other observations

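Other chromosomes also shifted in single pairs. In pair 1 the highest chromosome medians of the log2 ratio were those of chromosome 16 (0.33 over 461 tested genes) and chromosome 3 (0.23 over 707). In pair 3 the highest were those of chromosome 17 (0.30 over 744) and chromosome 15 (0.25 over 608), and the lowest was that of chromosome 13 (-0.19 over 543). In pair 2 chromosome 1 (0.20) was followed by chromosome 2 (0.13). These are values of 3 pairs with no test.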
